A study of Homo sapiens with 80 samples.

Results

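The genes examined here encode 8 integrin subunits of lymphocytes, namely ITGA4, ITGA5, ITGA6, ITGAL, ITGAE, ITGB1, ITGB2 and ITGB7. The rule lists them by name and uses no measured value, although earlier results of these data were known when it was set, and all 8 were found by their Ensembl identifiers among the 60663 genes of the count table. None was too low to test, although ITGB7, the lowest, averaged 82.6 read pairs per library. The RNA came from the human T lymphocyte line Jurkat (clone E6-1) and was depleted of ribosomal RNA before strand-specific sequencing, so that transcripts still being made were covered too. All groups thus share a single clone of leukemic T cells, which limits them as a model of T cells in the body. In the 9 g experiment, cells in pipettes were spun in a pipette centrifuge. Group hypg20s was exposed for 20 s and group hypg75s for 75 s, groups hypg3, hypg5, hypg7, hypg9 and hypg15 for the number of minutes in their names, and group hypg60 for 60 min. The controls stayed at 1 g, Ctrl for 15 min and Ctrl60 for 60 min, and each of the 10 groups holds 6 libraries. Groups with exposures shorter than that of hypg15 were first kept in the pipettes without a spin, so that their total time matched that of Ctrl. The count columns of Ctrl60 alone carry HEPES (a buffer) in their names, so that in hypg60 against Ctrl60 the exposure and a possible difference in buffer cannot be told apart. In the second experiment, a tabletop centrifuge spun cells for 5 min at 300 g, and they were fixed after a wait of 1 min (wait1min), 4 min (wait4min) or 15 min (wait15min). Further cells were heated to 42 °C for 5 min without a spin (heat) or neither spun nor heated (Ctrl300), and each of these 5 groups holds 4 libraries. Library 75 of hypg15 was left out, since it holds no counts on several chromosomes, which leaves 79 libraries with 22634465 to 41893490 assigned read pairs each.

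Integrins are membrane receptors built from an α and a β subunit, and they tie the actin skeleton of a cell to the matrix or to another cell. In T cells the β1 subunit (ITGB1) joins α4, α5 or α6 (ITGA4, ITGA5, ITGA6) in the receptors VLA-4, VLA-5 and VLA-6, which bind VCAM-1 and fibronectin, fibronectin, and laminin, respectively. The β2 subunit (ITGB2) joins αL (ITGAL) in LFA-1, the receptor for ICAMs, and β7 (ITGB7) joins α4 in the gut homing receptor for MAdCAM-1 or αE (ITGAE) in the receptor for E-cadherin. The short cytoplasmic ends carry the sites at which activation is set: talin and kindlins bind the NPxY-type motifs of the β tails, and the GFFKR-type motif next to the membrane holds the α tail to the β tail. Since they bear force between the skeleton and the outside, integrins are a common candidate for sensing mechanical load.

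The coding sequences of the carboxy-terminal ends are given for the 5 subunits on which the results turn. These ends hold all or most of the cytoplasmic tail and, in some subunits, part of the membrane-spanning segment before it. They show both what the family shares and how far its members differ in base composition, a property that comes up again with the measurements. Each run is the last 153 bases of the coding sequence, 5′ to 3′ with the stop codon, from the principal transcript of GENCODE 29 on GRCh38. Capitals mark the codons of the NPxY-type motif in β subunits, searched in frame as AAT or AAC, CCN, NNN and then TAT, TAC, TTT or TTC, and of the GFFKR-type motif in α subunits, searched as GGN, TTT or TTC in both of the next codons, AAA or AAG, and then CGN, AGA or AGG.
ITGB1: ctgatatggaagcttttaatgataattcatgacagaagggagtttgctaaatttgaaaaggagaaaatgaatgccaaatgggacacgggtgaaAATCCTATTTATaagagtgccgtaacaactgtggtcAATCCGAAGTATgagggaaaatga
ITGB2: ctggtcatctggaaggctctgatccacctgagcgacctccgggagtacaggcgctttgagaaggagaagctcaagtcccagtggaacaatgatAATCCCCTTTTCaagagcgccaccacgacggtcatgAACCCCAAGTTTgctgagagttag
ITGB7: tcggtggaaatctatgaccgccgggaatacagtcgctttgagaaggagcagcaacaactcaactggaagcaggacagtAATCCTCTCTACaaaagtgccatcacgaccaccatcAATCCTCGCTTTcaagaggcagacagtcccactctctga
ITGA4: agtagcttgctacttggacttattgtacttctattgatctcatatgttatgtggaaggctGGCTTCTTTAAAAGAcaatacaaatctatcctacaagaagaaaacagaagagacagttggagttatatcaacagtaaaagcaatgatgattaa
ITGA5: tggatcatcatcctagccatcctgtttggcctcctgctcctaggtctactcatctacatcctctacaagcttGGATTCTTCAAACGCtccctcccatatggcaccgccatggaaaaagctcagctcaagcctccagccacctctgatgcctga

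These stretches lie at chr10:32901570-32908454 (ITGB1, minus strand), chr21:44886368-44886825 (ITGB2, minus strand), chr12:53191556-53191930 (ITGB7, minus strand), chr2:181534879-181535527 (ITGA4, plus strand) and chr12:54396293-54397433 (ITGA5, minus strand), each in the last 2 coding exons of its gene. Each β end held 2 matches and each α end 1 match. Among the same windows of 19645 protein-coding genes, 0.87% held the β pattern and 0.061% the α pattern, so that the capitals mark a feature of few coding ends. From their first motif to the last codon, ITGB1 and ITGB2 both have 19 codons, which were identical at 76.3% of positions 1 and 2 but at 31.6% of positions 3. At these positions 3, the share of G or C was 36.8% in ITGB1 and 73.7% in ITGB2. Over the whole coding sequence the same share was 38.6% in ITGB1, 39.5% in ITGA4 and 42.4% in ITGA6, against 66.8% in ITGAE, 67.9% in ITGA5, 68.2% in ITGAL, 68.5% in ITGB7 and 83.4% in ITGB2. The 8 genes thus fall into 3 of low GC content (40.0% to 44.1% over the longest transcript) and 5 of higher GC content (54.5% to 60.0%).

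The libraries had the makeup of T cells. All 16 markers of T cell lines, among them CD3E, LCK and TRAC, averaged at least 1 CPM (read pairs scaled to the library total), with a sum of 4081 to 5353 CPM per library. Of 16 markers of other blood cells 2 reached 1 CPM (CD79A and ITGA2B), ELANE and PF4 were at 0 in every library, and the sum of the list ran from 32.9 to 71 CPM. Of 10 markers of non-blood cells, 3 reached 1 CPM (ACTA2, COL1A1 and PECAM1), and the sum ran from 163.6 to 235.7 CPM, most of it from PECAM1 (mean 201.8 CPM). At 300 g the sums of all 3 lists were lower than in Ctrl300, with 4081 to 4314 against 5068 to 5115 CPM for the T cell markers, and their part in the integrin results was not tested. In bulk RNA, fewer cells of a kind and less RNA per cell cannot be told apart. The labels do not say whether libraries of a group came from separate cultures, so that p-values measure the spread between libraries, which may be technical.

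Levels of different genes are compared as FPKM, that is, read pairs scaled by the deposited exon length of the gene and by the library total. In Ctrl, ITGB2 was the most abundant subunit with 35.7 ± 0.838 FPKM (SD, n = 6), ahead of ITGA4 with 22.5 ± 4.77 and ITGAL with 19.4 ± 0.627. ITGA5 followed with 8.13 ± 0.267, ITGB1 with 4.14 ± 0.411, ITGA6 with 3.15 ± 0.382 and ITGAE with 3.05 ± 0.0918, and ITGB7 came last with 0.522 ± 0.0366. The libraries of ITGA4 and ITGAL, of ITGB1 and ITGA6, and of ITGA6 and ITGAE overlapped, so that these neighbours cannot be ordered. The partners of LFA-1 were thus both among the 3 highest, and ITGB7 was the lowest. The ranks of ITGB1 and ITGA6 depended on the length used. Its deposited exon length of 14561 bases sums all annotated exons, and per base of the principal transcript it reached 16.5 ± 1.64 FPKM and stood above ITGA5 with 13.5 ± 0.442, while ITGA6 (3.75 ± 0.454) stood below ITGAE (5.22 ± 0.157). Ctrl60 had the same order as Ctrl, and no member was called between these groups, where edgeR called 0.0124% of 16109 genes and 578 had an unadjusted p under 0.05. The difference nearest to a call was that of ITGB7, at 0.24 with a 95% interval from 0.08 to 0.41.

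For each exposure, the question was whether these genes changed against the control of the same experiment. Changes are log2 fold changes from the quasi-likelihood test of edgeR, fitted on all genes of the 2 groups, and a gene is called when its Benjamini-Hochberg adjusted p over all genes tested is under 0.05, as in all sentences that follow. Single levels are TMM-normalized CPM, which compare libraries but not genes. Where libraries of 2 groups are said not to overlap, the share of all genes without overlap was not counted. The 7 comparisons up to 15 min share the Ctrl libraries and the 3 comparisons at 300 g share Ctrl300, so that their calls are not independent of each other.

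ITGA5, the α subunit of the fibronectin receptor, was the member called most often at 9 g. It was called higher in all 8 comparisons of 9 g with 1 g. Of the 15405 genes tested throughout, 1.11% were called higher in all 8. In Ctrl its level ran from 56.5 to 65 CPM with a median of 61. After 20 s at 9 g it ran from 71.5 to 78.9 CPM with a median of 76.6, after 75 s from 73.7 to 80.7 with a median of 76.8, and after 3 min from 75 to 86 with a median of 80.4. At these times, and at hypg7 (66.9 to 72.1 CPM, median 68.5) and hypg15 (73.9, 77.9, 71.3, 73.5 and 83 CPM), every centrifuged library lay above all 6 control libraries. At hypg5 (63.5 to 81, median 72.3) and hypg9 (62.7 to 76.4, median 66.2) the lowest libraries reached into the control range. After 60 min the level ran from 58.8 to 82.9 CPM with a median of 71.8, against 57 to 64.7 with a median of 62 in Ctrl60, so that these groups overlapped as well.

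The change of ITGA5 was 0.32 ± 0.04 (log2 fold change ± SE, adjusted p = 0.00011) at hypg20s, 0.36 ± 0.03 (adjusted p = 4.01e-06) at hypg75s and 0.38 ± 0.04 (adjusted p = 1.66e-05) at hypg3. From 5 to 9 min it was 0.24 ± 0.06 at hypg5 (adjusted p = 0.024), 0.18 ± 0.04 at hypg7 (adjusted p = 0.00796) and 0.18 ± 0.06 at hypg9 (adjusted p = 0.0326). It was 0.32 ± 0.05 at hypg15 (adjusted p = 0.000131) and 0.23 ± 0.07 at hypg60 (adjusted p = 0.0234). In folds, the changes ran from 1.13 to 1.30. The call at hypg5 was lost without library 27 (adjusted p = 0.053) or library 28 (0.0526), and that at hypg60 without library 43 (0.057) or library 46 (0.0555), with changes of 0.21 to 0.24. With 3 surrogate variables in a model of all 9 g groups it stayed called at the other 7 times (0.24 at hypg20s, 0.25 at hypg75s and 0.20 at hypg3), but not at hypg15 (0.055, adjusted p = 0.414). At hypg5 and hypg7 it was the sole member called, and at hypg9 ITGAL was called beside it.

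**Figure D1:**
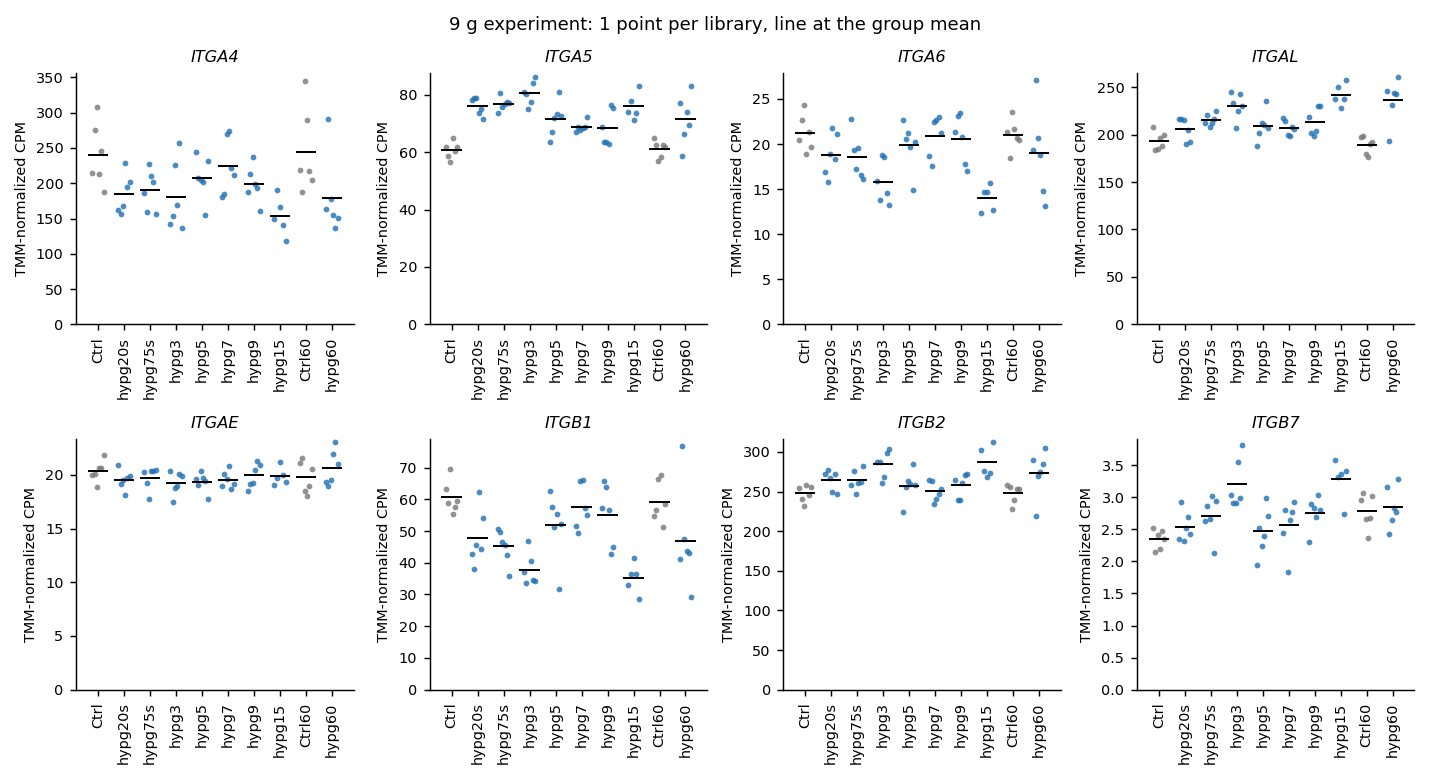
Level of each integrin gene in every library of the 9 g experiment, as TMM-normalized CPM on a linear axis from 0. Each point is a library (grey for 1 g controls, blue for 9 g), and the line is the group mean. ITGA5 lay above all 6 Ctrl libraries in every library of hypg20s, hypg75s, hypg3, hypg7 and hypg15, ITGB1 lay below them in every library of hypg75s, hypg3 and hypg15, and ITGAE kept to 17.4 to 23.1 CPM throughout.

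The other subunits of the β1 receptors took the opposite course. ITGB1 itself ran from 55.4 to 69.6 CPM with a median of 59.1 in Ctrl. It ran up to 62.2 with a median of 45 at hypg20s, from 35.9 to 50.8 with a median of 46 at hypg75s, and from 33.8 to 46.8 with a median of 35.8 at hypg3, and it measured 32.9, 36.5, 41.5, 36.3 and 28.5 CPM in the 5 libraries of hypg15. At hypg75s, hypg3 and hypg15 no library overlapped the controls, whereas at hypg5, hypg7 and hypg9 the groups overlapped and the medians were 53.9, 56.2 and 56.9 CPM. ITGB1 fell by 0.35 ± 0.10 on the log2 scale at hypg20s (adjusted p = 0.0273), by 0.41 ± 0.08 at hypg75s (adjusted p = 0.00115), by 0.71 ± 0.08 at hypg3 (adjusted p = 3.21e-05) and by 0.79 ± 0.08 at hypg15 (adjusted p = 5.99e-06). It was not called at hypg5 (-0.23), hypg7 (-0.08), hypg9 (-0.13) or hypg60 (-0.33, adjusted p = 0.162). With the surrogate variables ITGB1 was not called at hypg3 (-0.12, adjusted p = 0.115) or hypg15 (-0.0021, adjusted p = 0.986). It stayed called with smaller changes at hypg20s (-0.14) and hypg75s (-0.13).

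ITGA4, the α subunit of VLA-4, was more variable between control libraries, from 188 to 308 CPM with a median of 230 in Ctrl. It ran from 157 to 229 CPM with a median of 182 at hypg20s and from 137 to 257 with a median of 162 at hypg3, and measured 150, 191, 167, 141 and 118 CPM at hypg15. In all 3 groups the highest library reached into the control range. ITGA4 fell by 0.38 ± 0.11 at hypg20s (adjusted p = 0.0364), by 0.44 ± 0.16 at hypg3 (adjusted p = 0.0411) and by 0.65 ± 0.13 at hypg15 (adjusted p = 0.000564), and it was at -0.33 ± 0.12 without a call at hypg75s (adjusted p = 0.0577), at -0.27 ± 0.11 at hypg9 (adjusted p = 0.0878) and at -0.44 ± 0.18 at hypg60 (adjusted p = 0.0876). ITGA6, the α subunit of the laminin receptor, ran from 18.9 to 24.3 CPM in Ctrl, from 13.3 to 18.8 at hypg3 and from 12.4 to 15.7 at hypg15, with no overlap at either time. It fell by 0.45 ± 0.10 at hypg3 (adjusted p = 0.00245) and by 0.60 ± 0.09 at hypg15 (adjusted p = 6.1e-05) and was called at none of the other 6 times, where it was between -0.18 and -0.02. With the surrogate variables ITGA6 was at -0.04 at both hypg3 (adjusted p = 0.793) and hypg15 (adjusted p = 0.771) and not called, and ITGA4 was called at hypg15 (-0.25, adjusted p = 0.0239) but not at hypg20s (-0.13, adjusted p = 0.115) or hypg3 (-0.17, adjusted p = 0.0744). The same model called ITGA4 lower at hypg75s (-0.20, adjusted p = 0.0079), hypg7 (-0.18, adjusted p = 0.0157), hypg9 (-0.25, adjusted p = 0.00093) and hypg60 (-0.36, adjusted p = 9.35e-07).

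The leukocyte integrin LFA-1 was called higher in both subunits at several times. ITGAL ran from 184 to 208 CPM with a median of 193 in Ctrl, from 208 to 225 with a median of 214 at hypg75s and from 206 to 245 with a median of 231 at hypg3, and measured 238, 250, 228, 237 and 258 CPM at hypg15. No library of hypg75s or hypg15 overlapped the controls. ITGAL rose by 0.17 ± 0.03 at hypg75s (adjusted p = 0.000527), by 0.23 ± 0.04 at hypg3 (adjusted p = 0.000829), by 0.15 ± 0.05 at hypg9 (adjusted p = 0.0308), by 0.32 ± 0.05 at hypg15 (adjusted p = 6.17e-05) and by 0.33 ± 0.06 at hypg60 (adjusted p = 0.00132). ITGB2 ran from 232 to 259 CPM in Ctrl, from 260 to 303 at hypg3 and from 269 to 312 at hypg15. It rose by 0.11 ± 0.03 at hypg75s (adjusted p = 0.0176), by 0.17 ± 0.04 at hypg3 (adjusted p = 0.00307) and by 0.20 ± 0.05 at hypg15 (adjusted p = 0.00259), and was between 0.01 and 0.15 without a call at the other 5 times. With the surrogate variables neither subunit was called at hypg75s, hypg3 or hypg15, where ITGAL was at 0.07, 0.05 and 0.07 (adjusted p = 0.0509, 0.251 and 0.161) and ITGB2 at 0.02, 0.03 and -0.02, while ITGAL stayed called at hypg9 (0.09) and hypg60 (0.26). ITGAL at hypg7 (0.08, adjusted p = 0.0208) and ITGB2 at hypg60 (0.11, adjusted p = 0.000295) were called with them in addition. With the correction for GC content described further on, ITGB2 lost all 3 calls and ITGAL those at hypg75s and hypg9.

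Of the mucosal pair, ITGB7 rose by 0.42 ± 0.09 at hypg3 (adjusted p = 0.00216) and by 0.48 ± 0.10 at hypg15 (adjusted p = 0.000852). It ran from 2.15 to 2.52 CPM in Ctrl, from 2.91 to 3.82 at hypg3 and from 2.74 to 3.58 at hypg15, without overlap, which corresponds to 60 to 87, 71 to 112 and 63 to 89 read pairs. With the surrogate variables it was called at hypg3 (0.32, adjusted p = 0.0475) but not at hypg15 (0.32, adjusted p = 0.0926). ITGAE ran from 18.9 to 21.8 CPM in Ctrl and was called at none of the 8 times, with changes from -0.11 to 0.07. Both genes share exon bases with a gene on the opposite strand, ITGB7 1881 bases (42.3% of its exon bases) with ZNF740 and ITGAE 427 bases (6.47%) with HASPIN. ZNF740 averaged 2982 read pairs per library against 82.6 for ITGB7, and HASPIN 2349 against 633.5 for ITGAE. The counts were taken by strand, and ZNF740 rose too, by 0.23 ± 0.04 at hypg3 and 0.17 ± 0.05 at hypg15. How far reads of the other strand entered the counts of ITGB7 was not tested.

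Of the 8 members 3 were called at hypg20s, where 15.2% of all genes tested were called, and 4 at hypg75s, where the share was 31.3%. The count was 7 for hypg3 (41.3% of all genes) and again 7 for hypg15 (53.4%). It was 1 for hypg5 (6.02%) and hypg7 (12.8%), and 2 for hypg9 (19.6%) and hypg60 (30.1%). The times with most calls among the members were those with most calls among all genes. Between hypg15 and hypg3, no member was called (2.54% of 15915 genes were called), although with the surrogate variables ITGA5 was called lower at hypg15 than at hypg3 (-0.16, adjusted p = 0.000236). The groups hypg3 and hypg15 are also the only 9 g groups whose libraries are numbered 69 to 80 rather than 1 to 48, and the time and the number range cannot be told apart. At hypg60 a single library stood apart. Library 44 had 291 CPM of ITGA4 and 76.7 of ITGB1, while the other 5 ran up to 177 and 47.5 CPM. Without it, ITGA4 (-0.63 ± 0.13, adjusted p = 0.00141), ITGB1 (-0.53 ± 0.11, adjusted p = 0.00118) and ITGB2 (0.20 ± 0.05, adjusted p = 0.00224) were called too, which makes 5 members instead of 2.

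**Figure D2:**
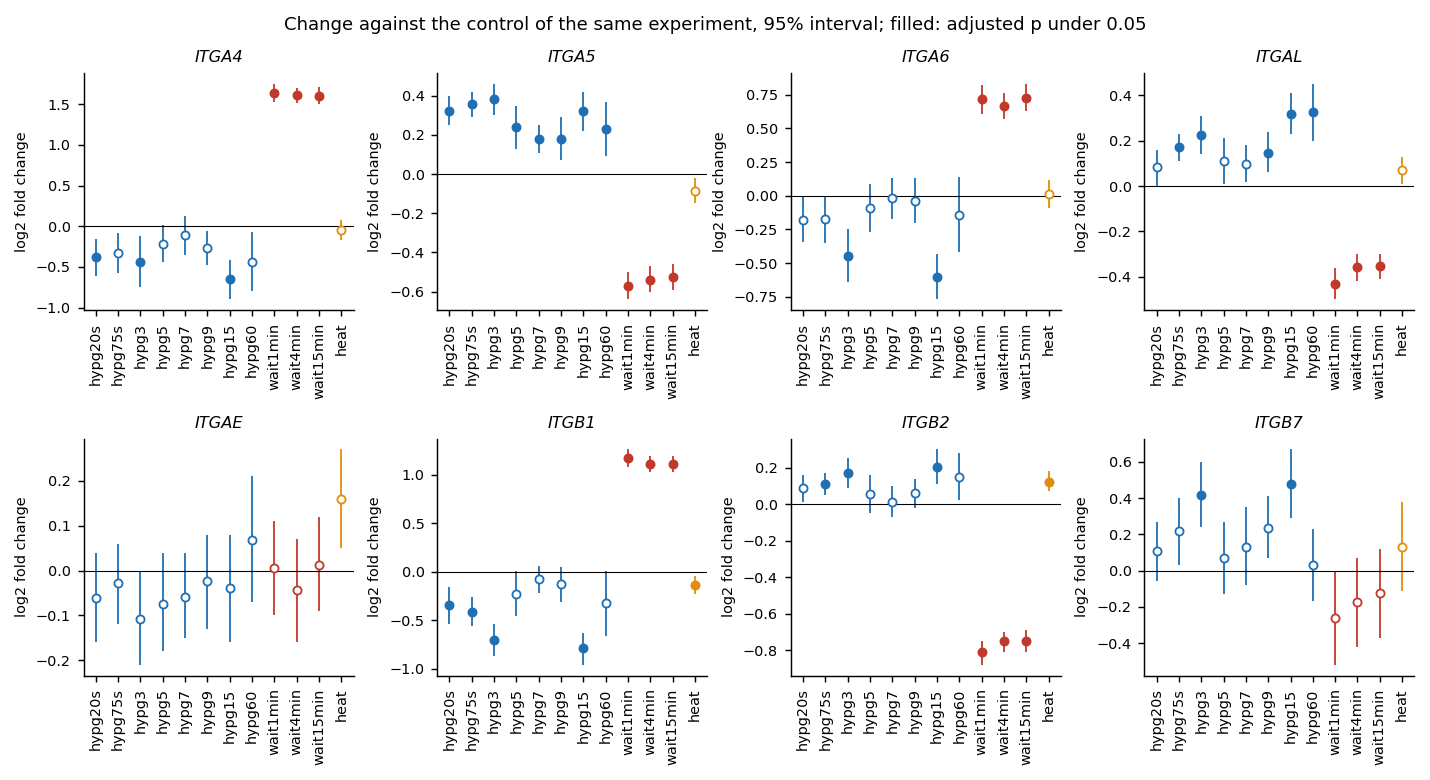
Log2 fold change of each integrin gene against the control of its own experiment for the 12 exposures, with 95% intervals. Filled points have an adjusted p under 0.05, and the colours stand for 9 g (blue), 300 g (red) and heat (orange). ITGA5 was called above 0 in all 8 comparisons at 9 g and below 0 in all 3 at 300 g, and ITGA4 reached 1.64 at wait1min.

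Centrifugation at 300 g, as used to pellet cells in routine culture, gave calls for 6 members, and all 6 ran against the calls seen at 9 g. ITGA4 stood at 291, 234, 255 and 231 CPM in the 4 Ctrl300 libraries and at 760, 814, 799 and 798 CPM at wait1min. It stood at 758 to 780 CPM at wait4min and 751 to 789 CPM at wait15min. ITGA4 rose by 1.64 ± 0.06 at wait1min (adjusted p = 3.42e-14), 1.61 ± 0.05 at wait4min (adjusted p = 1.27e-18) and 1.61 ± 0.05 at wait15min (adjusted p = 1.39e-15), which is 3.12-fold at the shortest wait.

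ITGB1 stood at 58.4, 57.7, 59.7 and 52.2 CPM in Ctrl300 and at 124, 135, 128 and 128 CPM at wait1min. It rose by 1.17 ± 0.05 at wait1min (adjusted p = 1.48e-13), 1.11 ± 0.04 at wait4min (adjusted p = 9.62e-17) and 1.11 ± 0.04 at wait15min (adjusted p = 1.65e-14). ITGA6, the α subunit of VLA-6, stood at 27.2, 25.6, 26.7 and 23.2 CPM in Ctrl300 and at 40.2, 42.5, 43.4 and 43.9 CPM at wait1min, and rose by 0.72 ± 0.05, 0.67 ± 0.05 and 0.73 ± 0.05 at the 3 waiting times. For these 3 genes the centrifuged and control libraries did not overlap at any waiting time. With the correction for GC content described further on, ITGA4 stayed called at all 3 waiting times, and ITGB1 and ITGA6 were called at none.

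ITGB2 took the opposite direction, from 278, 286, 290 and 287 CPM in Ctrl300 to 164, 166, 162 and 162 CPM at wait1min. It fell by 0.81 ± 0.03 at wait1min (adjusted p = 2.53e-13), by 0.75 ± 0.03 at wait4min (adjusted p = 1.46e-16) and by 0.75 ± 0.03 at wait15min (adjusted p = 2.15e-14). Its partner ITGAL went from 247, 242, 236 and 247 CPM to 190, 171, 179 and 185 CPM and fell by 0.43 ± 0.04, 0.36 ± 0.03 and 0.35 ± 0.03. ITGA5 went from 81.3, 80.1, 78.9 and 80.2 CPM to 55.5, 52.7, 53.6 and 55.4 CPM and fell by 0.57 ± 0.04, 0.54 ± 0.03 and 0.53 ± 0.03 at the 3 waiting times. None of these 3 genes overlapped the controls at any waiting time, in groups where 81.5% to 82.3% of all genes were called. How many of all genes were free of overlap was not counted. After the same correction ITGB2 and ITGA5 stayed called at all 3 waiting times with smaller changes (-0.345 and -0.27 at wait1min), and ITGAL at wait1min only (-0.10). Scaled by the library total without TMM, the falls were smaller too. ITGAL went from 21.89 FPKM in Ctrl300 to 19.25 at wait1min, and ITGA5 from 9.64 to 7.70.

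The mucosal pair was not called at 300 g with TMM normalization, whereas ITGAE was called higher at all 3 waiting times with total counts only (0.25, 0.22 and 0.27) and with the correction for GC content (0.32, 0.25 and 0.31). ITGB7 was called higher at wait15min with the correction for GC content (0.30). ITGAE stood at 21.5, 21.9, 24.2 and 21.6 CPM in Ctrl300 and at 22.5, 23.2, 22 and 22.7 CPM at wait1min, with changes of 0.01, -0.04 and 0.01 at the 3 waiting times. ITGB7 stood at 2.54, 3.07, 2.49 and 2.53 CPM in Ctrl300 and at 2.51, 2.27, 2.02 and 2.10 CPM at wait1min, with changes of -0.26 ± 0.13 (adjusted p = 0.0755), -0.17 and -0.12. At wait4min all 4 of its libraries lay below the controls. Hence 6 of 8 members were called at each waiting time, 3 higher and 3 lower, while the share of all genes called was 81.5% at wait1min (41.4% higher, 40.1% lower), 82.2% at wait4min and 82.3% at wait15min. The share of members called was thus no higher than that of all genes.

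After 15 min of waiting the same 6 members were still called, and between wait15min and wait1min no member was called (0.149% of 17446 genes were called), and the 95% interval of the difference lay between -0.13 and 0.14 for 7 members and between -0.12 and 0.40 for ITGB7. After 300 g the order of levels changed as well. ITGA4 reached 77.9 ± 1.61 FPKM (SD, n = 4) at wait1min and ITGB2 24.9 ± 0.351, whereas in Ctrl300 ITGB2 led with 36.9 ± 0.475 and ITGA4 had 21.1 ± 2.35. ITGB1 (9.26 ± 0.201 FPKM) passed ITGA5 (7.70 ± 0.303) at the same time. At the 3 waiting times no neighbours in this order by deposited exon length overlapped. Leaving out any of the libraries of these groups in turn kept all 6 members called at every waiting time.

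**Figure D3:**
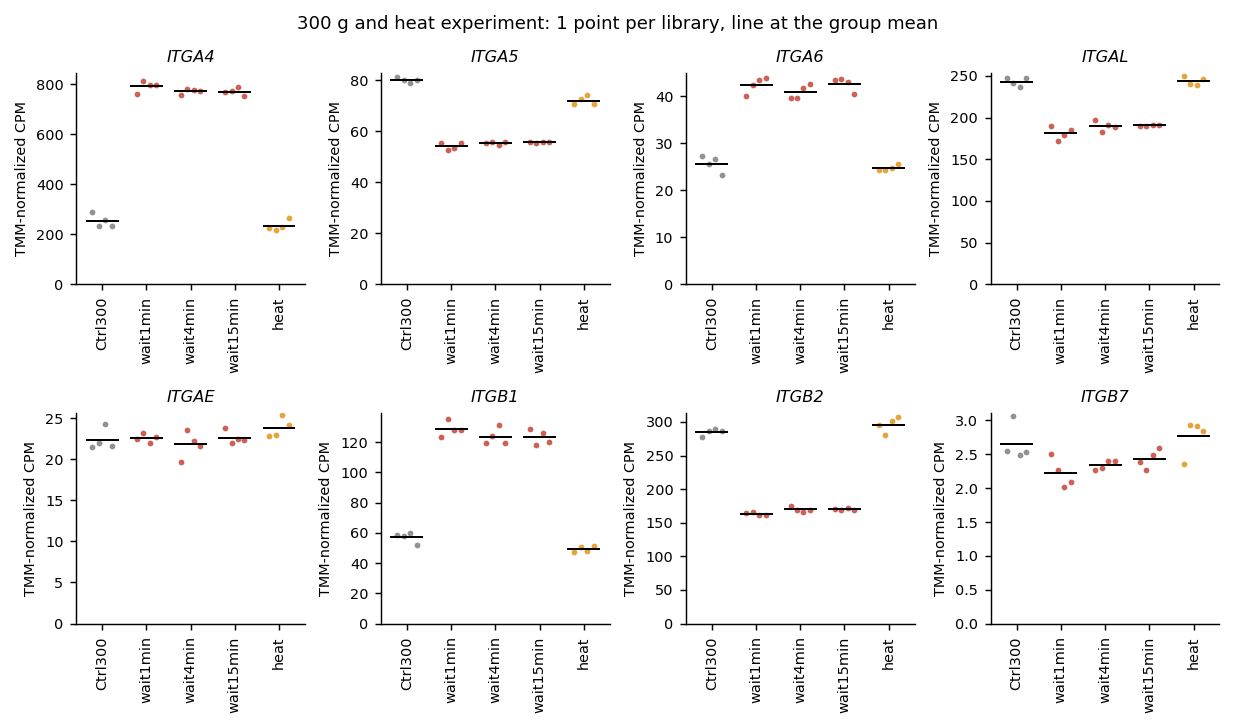
Level of each integrin gene in every library of the 300 g and heat experiment, as TMM-normalized CPM on a linear axis from 0. Each point is a library (grey for Ctrl300, red for 300 g with its waiting time, orange for heat), and the line is the group mean. The 12 libraries after 300 g held 751 to 814 CPM of ITGA4 against 231 to 291 in Ctrl300, and 162 to 176 CPM of ITGB2 against 278 to 290.

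Both experiments contain a spin of 5 min, and the change at wait1min was therefore compared with that at hypg5 in a single model. The difference was 1.86 ± 0.15 for ITGA4 (adjusted p = 7.75e-10), 1.40 ± 0.15 for ITGB1 (adjusted p = 2.55e-08), 0.81 ± 0.12 for ITGA6 (adjusted p = 1.15e-06), -0.81 ± 0.09 for ITGA5 (adjusted p = 1.76e-08), -0.54 ± 0.08 for ITGAL (adjusted p = 2.25e-06) and -0.86 ± 0.08 for ITGB2 (adjusted p = 2.35e-09). ITGAE (0.09) and ITGB7 (-0.33 ± 0.16, adjusted p = 0.0753) were not called. Of all genes tested, 72.6% differed in this way. ITGA5 was among the 0.682% of genes that were called higher in all 8 comparisons at 9 g and lower in all 3 at 300 g. The spins belong to separate experiments with their own controls and also differ in the centrifuge and the wait before fixation, and these cannot be told apart.

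Heat for 5 min gave 2 calls among the members, where 20.8% of all genes were called. ITGB2 rose by 0.12 ± 0.03 (adjusted p = 0.0056), from 278 to 290 CPM in Ctrl300 to 281 to 307 CPM, so that the groups overlapped. ITGB1 fell by 0.14 ± 0.05 (adjusted p = 0.0358), from 58.4, 57.7, 59.7 and 52.2 CPM to 47.3, 50.5, 48.2 and 51.1 CPM without overlap. That call was lost without library 49, 50 or 51 of Ctrl300 or library 65 or 67 of heat, with adjusted p from 0.0601 to 0.117. ITGA5 lay below all controls, at 70.5, 72.8, 74.1 and 70.7 CPM, but was not called (-0.08, adjusted p = 0.103), and ITGAE at 0.16 ± 0.06 (adjusted p = 0.0508) was called without library 51 of Ctrl300 (0.20, adjusted p = 0.0313). As a check of the exposure, of 4 heat shock genes 2 were called higher and 1 lower. DNAJB1, a co-chaperone, rose by 0.17 ± 0.03 (adjusted p = 0.000963) and HSPA1B, an Hsp70, by 0.63 ± 0.06, HSPH1 fell by 0.32 ± 0.06 (adjusted p = 0.00119), and HSPA1A, a near copy of HSPA1B, was at 0.44 ± 0.28 (adjusted p = 0.3). Without added heat, at hypg60, HSPA1A rose by 2.61 ± 0.28 and DNAJB1 by 1.46 ± 0.05, and the part of this in the integrin results at that time was not tested.

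The sign of the changes, called or not, went with the GC content of 7 of the 8 genes. The 3 genes of low GC content, ITGA4, ITGA6 and ITGB1, were those below 0 in all 8 comparisons at 9 g and above 0 in all 3 at 300 g, and ITGA5, ITGAL, ITGB2 and ITGB7 took the other side in both. ITGAE, with 54.9% GC one of the 5 of higher GC content, was above 0 in 1 of the 8 comparisons at 9 g and in 2 of the 3 at 300 g. Across all genes tested, which are not independent replicates, the fold change had a rank correlation with GC content of 0.592 at hypg20s, 0.675 at hypg3, 0.101 at hypg7 and 0.673 at hypg15, and of -0.686 at wait1min and 0.163 at heat. The GC tilt of a library, defined as the median log2 difference from the control mean of genes above 55% GC less that of genes below 45%, ran from -0.246 to 0.141 in Ctrl, from 0.396 to 0.936 at hypg15, from -0.404 (library 44) to 0.64 at hypg60 and from -1.78 to -1.68 at wait1min. Members were left out of this measure. Its part in the integrin results was examined with an alternative fit that removes each library's smooth dependence of counts on GC content, and whether the dependence arose in the cells or in the libraries was not tested.

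**Figure D4:**
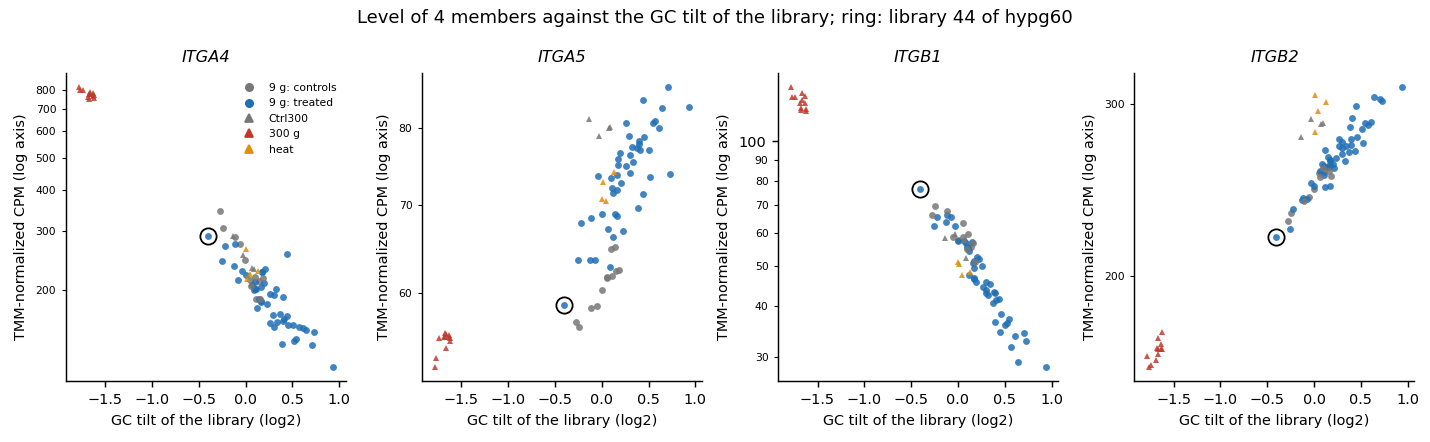
Level of ITGA4, ITGA5, ITGB1 and ITGB2 in each of 79 libraries (TMM-normalized CPM, log axis) against the GC tilt of the library (log2, all genes but the members). Circles are libraries of the 9 g experiment and triangles those of the 300 g and heat experiment, with controls in grey, 9 g in blue, 300 g in red and heat in orange. The libraries after 300 g lie apart at tilts of -1.78 to -1.62, and library 44 of hypg60, ringed, has the lowest tilt at 9 g (-0.404) and the highest ITGB1 level there (76.7 CPM).

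With the GC correction, ITGA5 was still called higher at hypg20s (0.27 ± 0.03), hypg75s (0.26 ± 0.03), hypg3 (0.29 ± 0.04), hypg5 (0.18 ± 0.04), hypg7 (0.14 ± 0.04) and hypg15 (0.15 ± 0.04), but not at hypg9 (0.105, adjusted p = 0.0578) or hypg60 (0.095, adjusted p = 0.12). ITGB1 fell by 0.37 ± 0.06 at hypg3 and by 0.35 ± 0.06 at hypg15 under the same correction, but was not called at hypg20s (-0.13, adjusted p = 0.14), and ITGA6 fell by 0.20 ± 0.06 and by 0.32 ± 0.06. ITGB2 was at 0.01 at hypg3 and at -0.04 at hypg15, without a call. ITGA4 fell by 0.44 at hypg15 (adjusted p = 0.00159), by 0.26 ± 0.08 at hypg9 and by 0.40 ± 0.13 at hypg60, and was at -0.24 (adjusted p = 0.205) at hypg3. ITGAE, not called without the correction, fell by 0.13 at hypg75s (adjusted p = 0.0465), by 0.21 ± 0.05 at hypg3 (adjusted p = 0.00459) and by 0.21 at hypg15 (adjusted p = 0.00612). ITGB7 stayed called at hypg3 (0.26, adjusted p = 0.0432) but not at hypg15 (0.24, adjusted p = 0.0608), and ITGAL stayed called at hypg3, hypg15 and hypg60 (0.12 to 0.19) but not at hypg75s (0.06, adjusted p = 0.154) or hypg9 (0.07, adjusted p = 0.11). At heat, ITGB2 (0.03) lost its call, ITGB1 (-0.14, adjusted p = 0.013) kept it, and ITGA5 was called at -0.16 (adjusted p = 0.000805).

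At 300 g the correction acted unequally on the members. ITGA4 remained called at 1.16 ± 0.05 (adjusted p = 7.48e-16), 1.15 ± 0.03 and 1.14 ± 0.04 at the 3 waiting times, whereas ITGB1 was at -0.02, -0.02 and -0.03 and ITGA6 at 0.04, 0.02 and 0.08 without a call. ITGB2 was called at -0.345 ± 0.03, -0.32 ± 0.02 and -0.31 ± 0.03, and ITGA5 at -0.27, -0.25 and -0.24. ITGAL fell by 0.10 ± 0.03 at wait1min (adjusted p = 0.0128) and was not called later. ITGAE rose by 0.32 ± 0.05, 0.25 ± 0.05 and 0.31 ± 0.05, and ITGB7 was called higher at wait15min (0.30). This correction moved the median of all genes to -0.119 at wait1min, so that ITGB1 and ITGA6 lay above the median gene. In the test of the difference between wait1min and hypg5, ITGA4 (1.35 ± 0.12), ITGA5 (-0.46 ± 0.06), ITGB2 (-0.33 ± 0.05) and ITGAL (-0.16 ± 0.06) stayed called, ITGAE (0.45 ± 0.07) was called in addition, and ITGB1 (0.14) and ITGA6 (0.09) were not.

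**Figure D5:**
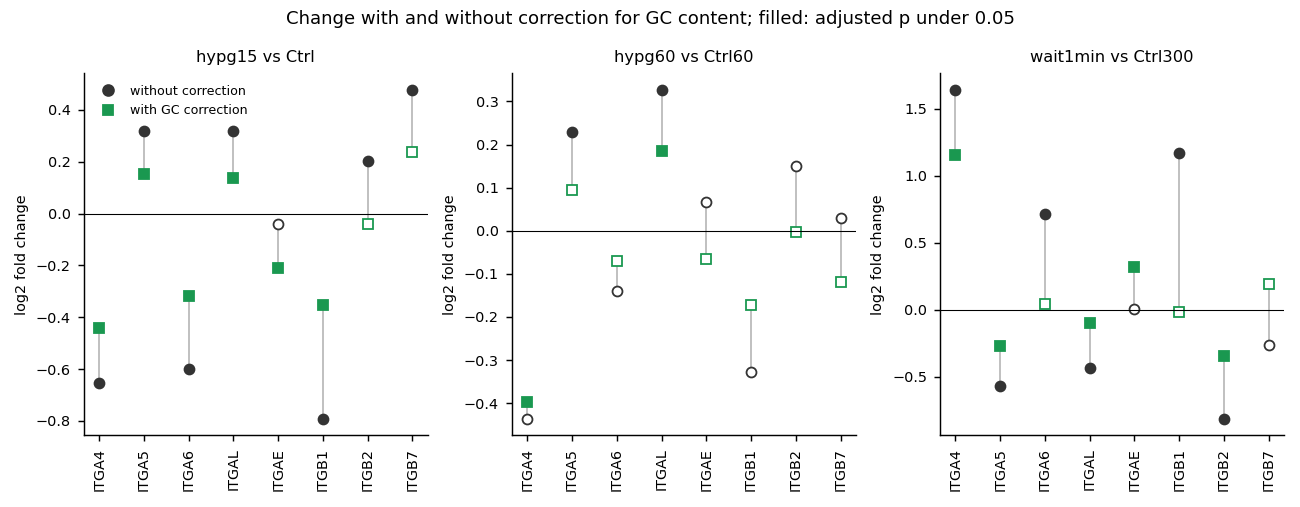
Log2 fold change of each integrin gene at hypg15, hypg60 and wait1min without (circles) and with (squares) correction of each library for GC content, filled where the adjusted p is under 0.05. At wait1min ITGA4 went from 1.64 to 1.16 and stayed called, while ITGB1 went from 1.17 to -0.02 and ITGA6 from 0.72 to 0.04.

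Other genes of the integrin pathway were taken from lists assembled with earlier results of these data known, and are given as counts beside the share of all genes called. These shares belong to the fits without the GC correction. With it, 5277 of all genes were called higher and 7589 lower at wait1min, against 7104 and 6882 without it. At hypg60 it called 2774 of 16318 genes higher and 4156 lower, against 4916 called in either direction without it. Of 18 further integrin subunits 10 were tested. At wait1min 5 were called higher and 4 lower (81.5% of all genes were called), among them ITGAV, which pairs with β1 and other β subunits (1.69 ± 0.06), ITGA1, a collagen receptor subunit (2.11 ± 0.10), and ITGB4 (-0.93 ± 0.19). After GC correction these stayed called at 0.26, 0.74 and -0.43. At hypg60, where 30.1% of all genes were called, ITGA10 rose by 1.32 ± 0.16 (adjusted p = 4.64e-05) and ITGA1 fell by 0.58 ± 0.15 (adjusted p = 0.011), with ITGA2B at 0.47 ± 0.14 as the third gene called (0.32 and not called with the GC correction). Of 22 ligands and counter-receptors, 10 were tested, and at wait1min 1 was called higher and 6 lower. ICAM3, the ligand of LFA-1 on lymphocytes themselves, fell by 1.04 ± 0.04 and ICAM4 by 1.08 ± 0.08, while LAMB1, a laminin chain, rose by 0.42 ± 0.06 (-0.55, -0.62 and 0.47 with the GC correction). At hypg60, MADCAM1 (0.97 ± 0.18) and ICAM5 (0.52 ± 0.11) were the genes called, both higher, against 2 higher and 3 lower with the GC correction.

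Of 18 activators and tail adaptors 17 were tested, with 5 called higher and 12 lower at wait1min, where 41.4% of all genes were called higher and 40.1% lower. The counts were 1 and 13 with the GC correction, and 6 and 9 with total counts only. TLN1, which encodes talin, fell by 0.91 ± 0.04 and FERMT3, the kindlin of blood cells, by 0.95 ± 0.04, whereas RAP1A, a small GTPase upstream of talin, rose by 1.11 ± 0.06 and the adaptor FYB1 by 1.38 ± 0.07. With the GC correction TLN1 (-0.50) and FERMT3 (-0.46) stayed called lower, FYB1 was at 0.04 without a call and RAP1A turned to -0.375 (called). At 9 g too the counts depended on the correction. At hypg3 (41.3% of all genes were called) 4 were called higher and 6 lower, but 0 and 6 with it. At hypg5 (6.02% of all genes) and hypg7 (12.8%) none was called, but 1 and 3 lower with it. The correction called 1624 of all genes higher and 2449 lower at hypg3, 782 and 1272 at hypg5, and 1168 and 2258 at hypg7. With total counts only, 3 of this list were called higher and 0 lower at hypg7. At hypg60 (30.1% of all genes without the correction), 2 were called higher against 0 higher and 7 lower with it. There TLN1 was at 0.24 ± 0.08 and RASGRP2, the exchange factor of Rap1, at 0.17 ± 0.06 (0.09 and 0.01 with the GC correction, not called). Of 19 focal adhesion components 17 were tested, with 3 called higher and 11 lower at wait1min (81.5% of all genes were called), from ACTN4 (-0.93 ± 0.04) to LIMS1 (1.97 ± 0.06), which were at -0.49 and 0.97 with the GC correction. At hypg60 1 was called higher and 2 lower (1 and 6 with the GC correction). RSU1, a partner of LIMS1, fell by 0.54 ± 0.08, CRK, an adaptor, rose by 0.39 (adjusted p = 0.0285) and ACTN4 fell by 0.17 ± 0.06, and all 3 stayed called with the GC correction (-0.48, 0.39 and -0.32).

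All 17 inhibitors and membrane partners of the tails were tested, and 3 were called higher and 13 lower at wait1min (81.5% of all genes were called, 40.1% lower), among them BSG (-1.12 ± 0.04) and DOK1 (-0.99 ± 0.05) against KRIT1 (2.15 ± 0.10) and CD47 (1.31 ± 0.05). After GC correction BSG was at -0.63, DOK1 at -0.50, KRIT1 at 0.75 and CD47 at -0.10, all called. Of 8 transcription factors reported at integrin genes, 7 were tested and all 7 were called at wait1min, 3 higher, among them RUNX1 (0.50 ± 0.03) and ETS1 (0.56 ± 0.04), and 4 lower, among them RUNX3 (-0.74 ± 0.05) and SMAD3 (-0.40 ± 0.04). With the GC correction 1 was called higher and 6 lower, RUNX3 was at -0.34, and ETS1 turned to -0.18 (called). At heat the 7 were all called lower, with a median of -0.22, while 10.2% of all genes were called lower there. Of 5 transcripts named after a member 3 were tested at wait1min and 2 called. The antisense transcript ITGB2-AS1 rose by 0.54 ± 0.09 at wait1min (adjusted p = 2.24e-05, 0.96 with the GC correction), where ITGB2 fell. Both share 303 exon bases and were counted by strand. The pseudogene ITGB1P1, whose reads can be shared with ITGB1, was at 1.92 ± 0.40. It averaged 0.16 CPM and reached at most 0.53 CPM in any library. Against Ctrl300 it passed the filter on low counts at wait1min only, so that this value carries little weight.

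Over the 10 groups of the 9 g experiment, ITGB1 followed ITGA6 (Pearson's r = 0.97 of the group means of log2 CPM) and ITGA4 (0.95), and ITGAL followed ITGB2 (0.95), while ITGB1 and ITGB2 ran against each other (-0.86). These are descriptions over 10 group means from the same libraries. The genes most like each member by this measure, out of 8501 (8502 for ITGB7) with a mean of at least 10 CPM, were HLTF and HSPA13 for ITGA4, CCNF and CPTP for ITGA5, RBPJ and DESI2 for ITGA6, PRRC2A and CLSTN1 for ITGAL, RGL1 and CARD8 for ITGAE, NLN and ICE2 for ITGB1, KCNAB2 and MARK4 for ITGB2, and HS1BP3 and GAK for ITGB7, with r from 0.95 to 0.998. The genes nearest to ITGA4, ITGA6 and ITGB1 had 34.9% to 42.1% GC and those nearest to ITGA5, ITGAL, ITGB2 and ITGB7 had 53.95% to 67.5%, whereas those nearest to ITGAE had 46.7% and 40.3%. By rank correlation instead, HLTF, CLSTN1 and GAK were again among the 2 nearest genes of their members.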

How the data were processed

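RNA-Seq of Jurkat T cells was analysed in 79 of 80 libraries. Per the file headers and the labels, the authors deposited raw counts of read pairs per gene, made with Trim Galore 0.6.5, STAR 2.7.3a and featureCounts (2.0.3 in the header, 2.0.1 in the submitters' processing notes) on the reverse strand of Ensembl 104 (GRCh38), without multi-mapping reads. Their length column is the summed exon length in bases. A usable record was found for 60663 genes, and a gene broken over 3 lines was left out, as was library 75, which holds no counts on several chromosomes. Some column names differ from the sample titles (the column of wait4min is named 1min, that of wait1min instant, and those of Ctrl60 mention HEPES), and the titles were followed.

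Each comparison was fitted on all genes of its 2 groups with the quasi-likelihood test of edgeR 4.0.16 (R 4.3.3), TMM normalization, filterByExpr with a minimum count of 10 and Benjamini-Hochberg adjustment, and called at an adjusted p under 0.05. The difference between the changes at wait1min and hypg5 used a model of 4 groups. SE came from the F statistic, and the test was checked on simulated data. FPKM were computed from counts, deposited length and library total. GC content and coding ends came from GENCODE 29 on GRCh38.

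Alternatives were no filter, RLE factors, total counts only, DESeq2 1.42.0, all groups of an experiment in a model, 3 surrogate variables (sva 3.50.0), a GC offset (lowess of log2 counts with prior count 2, span 0.3), library 75 included, and 83 refits without a library. Python 3.11.15 with numpy 2.4.6, pandas 2.3.3, scipy 1.17.1 and matplotlib 3.10.9 served for the rest.

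The members and lists were chosen with earlier results of these data known. All members are named. From each list, the 2 genes with the largest and the 2 with the smallest change among those called at wait1min, and the same at hypg60, could be named, with transcripts named after a member, HSPA1A and DNAJB1. HSPA1B and HSPH1 are named after their values were seen. ZNF740 and HASPIN are named for their overlap. Counting error alone would allow finer statements than the spread between libraries, which the tests use.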

Additional observations from a re-analysis of the deposited data

Results flagged for a closer look

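Of 120 groups of libraries (8 members in 15 groups), 5 had a library far from the others of its group by Dixon's test, and chance alone gives about 1 in 20. At hypg60, library 44 held 290.6 CPM of ITGA4, while the next library held 177.2 CPM. At hypg5, library 29 held 31.75 CPM of ITGB1 against 51.39 CPM in the next library. In Ctrl300, library 51 held 24.21 CPM of ITGAE (next 21.92 CPM) and library 50 held 3.065 CPM of ITGB7 (next 2.543 CPM). In the heat group, library 65 held 2.362 CPM of ITGB7 (next 2.843 CPM). The GC tilt of library 44 was the lowest of its group (-0.404), and that of hypg5 ran up to 0.571.

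The change at wait1min less that at hypg5 passed the test for 6 members, with log2 differences of 1.86 for ITGA4, 1.40 for ITGB1, 0.81 for ITGA6, -0.81 for ITGA5, -0.54 for ITGAL and -0.86 for ITGB2. With the GC correction ITGB1 (0.14) and ITGA6 (0.09) did not pass it, and ITGAE (0.45) did. Of all genes, 72.6% passed the same test.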

How the results depend on the processing

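Of 53 calls of a member in a comparison, 51 were made with the same sign without a filter on low counts, 52 with RLE factors, 50 with total counts only, 51 with DESeq2 and 32 with the GC correction. Of 47 such calls, 43 were made with all groups of an experiment in a model, and of 27 calls at 9 g, 13 with 3 surrogate variables. All 7 calls at hypg15 held with library 75 included. Refits without a library were made for hypg5, hypg15, hypg60, the 3 waiting times, heat, wait15min against wait1min and the difference between wait1min and hypg5, and not for hypg20s, hypg75s, hypg3, hypg7 or hypg9. They kept 312 of 321 calls, and no sign of a called change turned in them. These refits of hypg5 and hypg60, and the transcript length, were chosen after seeing the data.

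The number of members called moved by over 1.5 times in these cases. With all groups in a model it was 1 at hypg20s and 4 at hypg60. With surrogate variables it was 2 at hypg3, 3 at hypg7, 1 at hypg15, 4 at hypg60 and 1 between hypg15 and hypg3. With total counts only it was 2 at hypg5, 2 at hypg7 and 4 at hypg9. At hypg9 it was 1 with RLE factors and 1 with the GC correction. Without single libraries it ran from 0 to 1 at hypg5, from 1 to 5 at hypg60 and from 1 to 2 at heat. With a smaller move, for the difference between wait1min and hypg5 it ran from 6 to 7, ITGB7 being called without library 53 (adjusted p = 0.0419, edgeR).

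Signs of called values turned for ITGB2 with the GC correction at hypg75s (-0.0279) and hypg15 (-0.0404) and with surrogate variables at hypg15 (-0.0167). With the GC correction they turned for ITGB1 at wait1min (-0.0187), wait4min (-0.0245) and wait15min (-0.0294), for ITGAE at wait4min (0.25) and for ITGB7 at wait15min (0.30), both called there. ITGAE at wait4min turned with total counts only as well (0.22, called). The cause was not tested.

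At wait1min the median of all genes was 0.25 with total counts only and -0.119 with the GC correction, and 8527 genes were called higher and 5218 lower with total counts, 5277 and 7589 with the correction, against 7104 and 6882 otherwise. No paired analysis was possible because the library numbers are not shared between groups. Depth limits ITGB7 most, with 56 to 124 read pairs per library.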
